A study of Mus musculus with 4 samples.

Results

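The Cyp2a and Cyp2b subfamilies of cytochrome P450 were described in mouse liver through 7 genes, Cyp2a4, Cyp2a5, Cyp2a12, Cyp2a22, Cyp2b9, Cyp2b10 and Cyp2b13. They were picked by gene symbol from the 46603 Ensembl identifiers of the count table, with earlier results of these data known. Total liver RNA of 4 male HuRflox/flox (C57BL/6 J) mice was sequenced after 4 weeks on a Western diet with sugar water (WDSW), with 42% of its energy as fat and 0.1% cholesterol, and with 23.1 g/L fructose and 18.9 g/L glucose in the drink. All 4 mice thus carried the floxed alleles and ate the same diet. Control mice (mice 1 and 2) received AAV8-TBGP-GFP and HuR hKO mice (mice 3 and 4) received AAV8-TBGP-Cre, a viral vector whose thyroxine-binding globulin promoter (TBGP) limits Cre to hepatocytes. HuR, the product of Elavl1, is a protein that binds mRNAs, and the comparison asked which liver mRNAs differ when hepatocytes lose it. The age of the mice at the start was not given in the sources used here, and p-values over 2 mice a group measure only the spread between these animals.

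P450 enzymes of these subfamilies sit in the endoplasmic reticulum of hepatocytes, where they hydroxylate steroids, drugs, nicotine and plant compounds with electrons passed on by P450 oxidoreductase. Transcription of several members is switched on by the nuclear receptors CAR and PXR when a drug such as phenobarbital reaches the liver, and Cyp2b10 is the usual read-out of CAR in mice. Cyp2a4, Cyp2b9 and Cyp2b13 are known as female-predominant genes, which the pulsatile growth hormone of adult males holds down through STAT5B. Cyp2a5, the mouse coumarin 7-hydroxylase, answers to CAR, NRF2 and other stress pathways, and Cyp2a12 adds a hydroxyl group back to secondary bile acids.

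All 7 genes lie in 1 cluster on chromosome 7 of GRCm38. Cyp2b10 (ENSMUSG00000030483, chr7:25897620-25926624, plus strand), Cyp2b13 (ENSMUSG00000040583, chr7:26061497-26096197, plus strand) and Cyp2b9 (ENSMUSG00000040660, chr7:26173411-26210661, plus strand) come first, followed by Cyp2a4 (ENSMUSG00000074254, chr7:26307169-26315088, plus strand). Cyp2a5 (ENSMUSG00000005547, chr7:26835305-26843548, plus strand), Cyp2a22 (ENSMUSG00000091867, chr7:26931631-26939384, minus strand) and Cyp2a12 (ENSMUSG00000060407, chr7:27029081-27037375, plus strand) close it. The coding transcript of Cyp2b10 has 10 exons and those of the other 6 genes have 9.

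The members form pairs of close copies, and how far a read can tell them apart bears on each value below. The coding sequences of Cyp2a4 and Cyp2a5 differed at 23 of 1482 aligned bases (98.45% identity), those of Cyp2a12 and Cyp2a22 at 45 of 1476 (96.95%) and those of Cyp2b9 and Cyp2b13 at 107 of 1473 (92.74%). Cyp2b10 was 86.2% identical to Cyp2b9 and 87.07% identical to Cyp2b13, while any Cyp2a and any Cyp2b sequence were at most 59.84% identical. The following stretches of 100 coding bases, from the GENCODE transcripts of GRCm38, show where the pairs can be told apart, with the bases that differ within a pair in capitals. For Cyp2a4 and Cyp2a5 they cover coding bases 570 to 669, across exons 4 and 5 (plus strand, chr7:26309004-26310720 and chr7:26837167-26838882, with the intron left out).
Cyp2a4: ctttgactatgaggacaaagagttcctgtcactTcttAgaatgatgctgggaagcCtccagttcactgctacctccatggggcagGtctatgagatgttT
Cyp2a5: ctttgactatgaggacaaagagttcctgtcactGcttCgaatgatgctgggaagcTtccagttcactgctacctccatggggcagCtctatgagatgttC

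For Cyp2a12 and Cyp2a22 the stretch runs over coding bases 1287 to 1386, across exons 8 and 9 (chr7:27035442-27036553 on the plus strand and chr7:26932444-26933489 on the minus strand, with the intron left out).
Cyp2a12: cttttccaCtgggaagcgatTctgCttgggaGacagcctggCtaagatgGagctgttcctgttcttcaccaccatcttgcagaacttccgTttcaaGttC
Cyp2a22: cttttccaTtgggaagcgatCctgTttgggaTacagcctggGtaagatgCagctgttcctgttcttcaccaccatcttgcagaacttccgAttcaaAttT

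For Cyp2b9 and Cyp2b13 it covers coding bases 1026 to 1125 in exon 7 (plus strand, chr7:26200794-26200893 and chr7:26088306-26088405).
Cyp2b9: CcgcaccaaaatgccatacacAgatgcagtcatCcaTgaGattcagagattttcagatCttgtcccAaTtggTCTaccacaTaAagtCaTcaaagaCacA
Cyp2b13: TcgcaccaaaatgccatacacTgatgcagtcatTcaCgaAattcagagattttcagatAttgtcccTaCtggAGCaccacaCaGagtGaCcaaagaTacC

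These stretches hold 5, 9 and 17 differing bases, respectively, the most of any stretch of that length in each pair. Elsewhere the longest run of identical coding bases reached 216 in Cyp2a4 and Cyp2a5, 206 in Cyp2a12 and Cyp2a22, and 113 in Cyp2b9 and Cyp2b13. Of all 100-base windows of the Cyp2a4 coding transcript, 11.2% occurred letter for letter in Cyp2a5, against 6.36% of the Cyp2a22 windows in Cyp2a12 and 1.18% of the Cyp2b13 windows in Cyp2b9. The read length was not given in the sources used here, and these shares depend on the window: at 50 bases they were 36.1%, 25.7% and 10.8%, and at 150 bases 4.22%, 3.46% and 0%. A read that falls in such a window cannot be assigned to 1 gene of the pair, and the submitters' processing notes name RSEM without its role, so the split of counts within a pair is uncertain, most of all for Cyp2a4 beside the far more abundant Cyp2a5.

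As a check of the labels, Elavl1 was read first. Its counts were 377 and 347 in control mice 1 and 2 and 541 and 648 in mice 3 and 4, or 28.4 and 25.9 against 37.7 and 34.4 CPM (counts scaled to a common library size by TMM factors). Elavl1 was thus not lower but 1.33-fold higher in the libraries labelled HuR hKO (log2 fold change 0.41 ± 0.135 SE). By edgeR's quasi-likelihood test its unadjusted p was 0.016 and its adjusted p 0.545. The deposited gene totals give no view of single exons, so they cannot show whether the floxed part was lost. For this reason, the groups are called by their labels throughout, and each direction below is that of mice 3 and 4 against mice 1 and 2.

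The libraries held between 13032095 and 19715577 counts, the largest being mouse 4. A total of 3 counts, the limit that a count of 0 allows, stood for 0.152 to 0.23 CPM, and this covers counting error only. The liver label fitted the marker genes, as the 7 hepatocyte markers summed to 65104.7 and 66751.2 CPM in control and to 62628.2 and 71915.5 CPM in HuR hKO. The male label fitted as well: Xist had 1 to 8 counts and the Y-linked gene Ddx3y 653 to 945 counts in every mouse, and 0 of the 4 sex chromosome genes tested were called.

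All 7 members passed the filter on low counts, 5 of them through both control mice as well as both HuR hKO mice. Cyp2a4 and Cyp2b13 reached the filter's 0.729 CPM in 1 of the 2 control mice and in both HuR hKO mice, so both entered the test through the group in which they were high. Genes were called at a fold change of at least 1.8 with an unadjusted p under 0.05 in edgeR's quasi-likelihood test. By this rule 4 members, Cyp2a4, Cyp2a22, Cyp2b9 and Cyp2b13, were higher in the libraries labelled HuR hKO and 0 were lower, against 1.21% of the 13001 genes tested that were higher and 0.915% that were lower. After Benjamini-Hochberg adjustment over all genes, 0 of 7 members had a p under 0.05 in edgeR, a level that 0.0231% of all genes reached. Without adjustment 5 members were under 0.05, as were 7.43% of all genes. DESeq2's Wald test put the adjusted p of 3 members (Cyp2a4, Cyp2b9 and Cyp2b13) under 0.05, a level that 0.654% of all genes reached in that test. The count was 4 in edgeR without a filter on low counts, where 0.751% of 21432 genes reached it, and 0 in limma-voom. In 5 members both HuR hKO mice lay above both control mice, an order that 19.3% of all genes tested showed. All 7 log2 fold changes were above 0, with a median of 1.52, beside a median of 0.00 over all genes tested. Because the members were chosen with earlier results of these data known, these contrasts with all genes are descriptive and no independent enrichment.

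**Figure D1:**
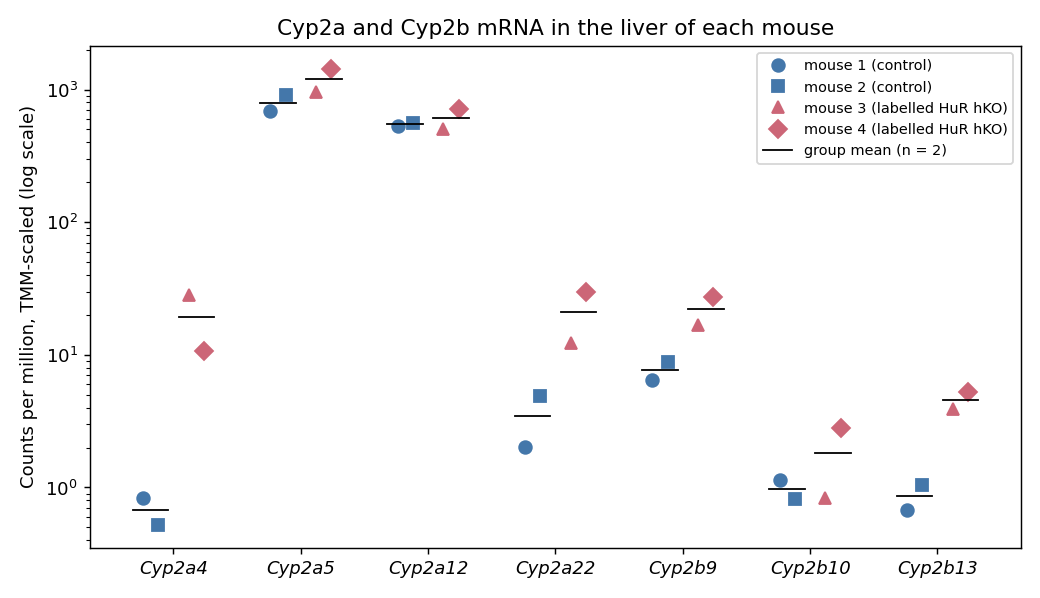
Level of each gene in each mouse, in CPM scaled by TMM factors, on a log axis; circles and squares are the control mice 1 and 2, triangles and diamonds the mice 3 and 4 labelled HuR hKO, and bars the means of 2 mice. The groups are apart in Cyp2a4, Cyp2a22, Cyp2b9 and Cyp2b13, apart by less in Cyp2a5, and overlap in Cyp2a12 and Cyp2b10, where only mouse 4 stands above the controls.

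Cyp2a4, a steroid hydroxylase of the female-predominant group, showed the widest difference of the 7. As shown in the plot of levels by mouse, it stood at 0.828 and 0.523 CPM in the control mice (11 and 7 counts) and at 28.1 and 10.6 CPM in mice 3 and 4 (403 and 200 counts). Both HuR hKO mice were far above both controls, but they also differed from each other by 2.65-fold, with mouse 3 the higher. The log2 fold change was 4.81 ± 0.569 (SE), the fifth largest of all genes tested, with an adjusted p of 0.0636 by edgeR. It stayed between 3.94 (without mouse 3) and 5.36 (without mouse 4) when 1 mouse was left out, and its adjusted p ran from 5.31e-17 with DESeq2 to 0.296 with limma-voom.

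Its near copy Cyp2a5, the main coumarin hydroxylase, was measured at 687 and 906 CPM in control and at 951 and 1435 CPM in mice 3 and 4. The groups did not overlap, yet mouse 3 exceeded mouse 2 by little. The log2 fold change of 0.58 ± 0.229 (SE) was under the 1.8-fold threshold, with an adjusted p of 0.617 by edgeR, and it went from 0.26 without mouse 4 to 0.83 without mouse 3. Thus the copy that holds nearly all counts of the pair was not called, and Cyp2a4 was.

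Because reads could be divided differently within the pair, the share of Cyp2a4 was computed in each mouse. Cyp2a4 took 11 of 9139 counts of the pair in mouse 1 (0.12%, exact 95% binomial interval 0.0601 to 0.215%) and 7 of 12136 in mouse 2 (0.0577%, 0.0232 to 0.119%). In mouse 3 it took 403 of 14032 (2.87%, 2.6 to 3.16%) and in mouse 4 200 of 27230 (0.734%, 0.637 to 0.843%). The intervals of mice 3 and 4 lay above those of both controls and apart from each other. The mean share differed by 1.71 percentage points, and an exact 2-sided permutation test gave p = 0.333, the smallest value that 2 mice against 2 allow, and the value of all 3 pairs described here before and after adjustment. Summed before the fit, Cyp2a4 and Cyp2a5 together gave a log2 fold change of 0.60 ± 0.224 (SE), adjusted p = 0.587 by edgeR, and the pair as a whole was not called.

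Cyp2a12, the bile acid hydroxylase, was the other abundant member. It was measured at 535 and 557 CPM in control and at 501 and 720 CPM in mice 3 and 4. Mouse 3 was below both controls and mouse 4 above them, so the groups overlapped. The log2 fold change was 0.16 ± 0.189 (SE), adjusted p = 0.882 by edgeR, and without mouse 4 it turned to -0.12.

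Cyp2a22, a scarce gene close in sequence to Cyp2a12, was at 2.03 and 4.85 CPM in control (27 and 65 counts) and at 12.3 and 29.9 CPM in mice 3 and 4 (176 and 564 counts). Every HuR hKO value exceeded every control value, although the mice of either group were more than 2-fold apart. Its log2 fold change was 2.62 ± 0.482 (SE), with an adjusted p of 0.144 by edgeR, and lay between 1.83 without mouse 4 and 3.38 without mouse 2. Over the alternatives its adjusted p ran from 1.26e-05, in edgeR without a filter on low counts, to 0.557 in the robust edgeR test. As a share of the counts of Cyp2a22 plus Cyp2a12, it took 0.378% (0.249 to 0.55%) and 0.864% (0.668 to 1.1%) in the controls, and 2.39% (2.05 to 2.77%) and 4% (3.68 to 4.33%) in mice 3 and 4. The summed pair, an alternative added after the data were seen, gave a log2 fold change of 0.20 ± 0.193 (SE), adjusted p = 0.850 by edgeR.

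**Figure D2:**
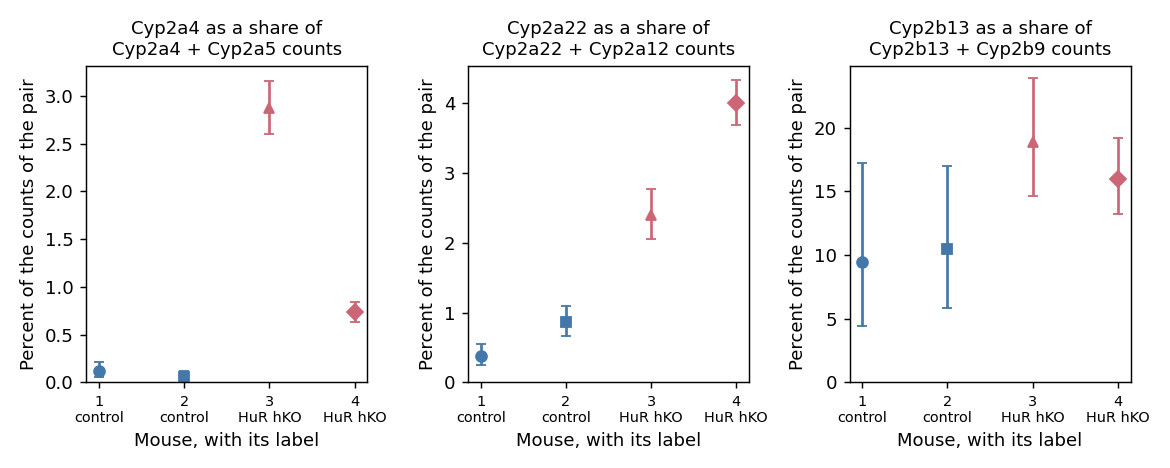
Share of the counts of each near-identical pair that fell to its scarcer gene, in percent, for each mouse, with exact 95% binomial intervals that cover counting error only; each panel has its own axis from 0. For Cyp2a4 (left) and Cyp2a22 (middle) the intervals of mice 3 and 4 lie above those of mice 1 and 2, and for Cyp2b13 (right) the intervals overlap.

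Of the Cyp2b genes, Cyp2b9, a female-predominant steroid hydroxylase, was the most abundant. It stood at 6.47 and 8.88 CPM in control (86 and 119 counts) and at 16.7 and 27.2 CPM in mice 3 and 4 (240 and 513 counts). Both HuR hKO mice were above both controls, at 2.18 and 3.55 times the control mean. The log2 fold change was 1.52 ± 0.264 (SE), adjusted p = 0.137 by edgeR, with a range of 1.12 to 1.81 when 1 mouse was left out and an adjusted p of 0.000138 (edgeR, no filter) to 0.449 (edgeR, without mouse 4) over the alternatives.

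Cyp2b13, its close relative, was measured at 0.677 and 1.05 CPM in control (9 and 14 counts) and at 3.91 and 5.20 CPM in mice 3 and 4 (56 and 98 counts). The levels of the groups were well apart, and among the 4 called genes the HuR hKO mice were closest to each other here. Its log2 fold change of 2.40 ± 0.375 (SE) had an adjusted p of 0.103 by edgeR and lay between 2.11 and 2.74 without any 1 mouse, and that p ran from 0.000296 to 0.442 over the same alternatives as for Cyp2b9. Cyp2b13 took 9.47% and 10.5% of the counts of Cyp2b9 plus Cyp2b13 in the controls and 18.9% and 16% in mice 3 and 4, with binomial intervals that overlapped between the groups (at most 17.2% in control, at least 13.2% in HuR hKO). The sum of Cyp2b9 and Cyp2b13, most of which is Cyp2b9, was called, from 7.15 and 9.93 CPM to 20.7 and 32.4 CPM, with a log2 fold change of 1.64 ± 0.253 (SE) and an adjusted p of 0.106 by edgeR.

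Cyp2b10, the CAR read-out, was scarce in every mouse. It had 1.13 and 0.821 CPM in control (15 and 11 counts) and 0.837 and 2.81 CPM in mice 3 and 4 (12 and 53 counts). Only mouse 4 was above the controls, and mouse 3 lay between them. The log2 fold change was 0.94 ± 0.604 (SE), adjusted p = 0.768 by edgeR. It was -0.22 without mouse 4 and 1.50 without mouse 3, where the unadjusted p fell under the threshold (adjusted p = 0.686 by edgeR, the lowest of its alternatives), so that its direction rested on 1 mouse.

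**Figure D3:**
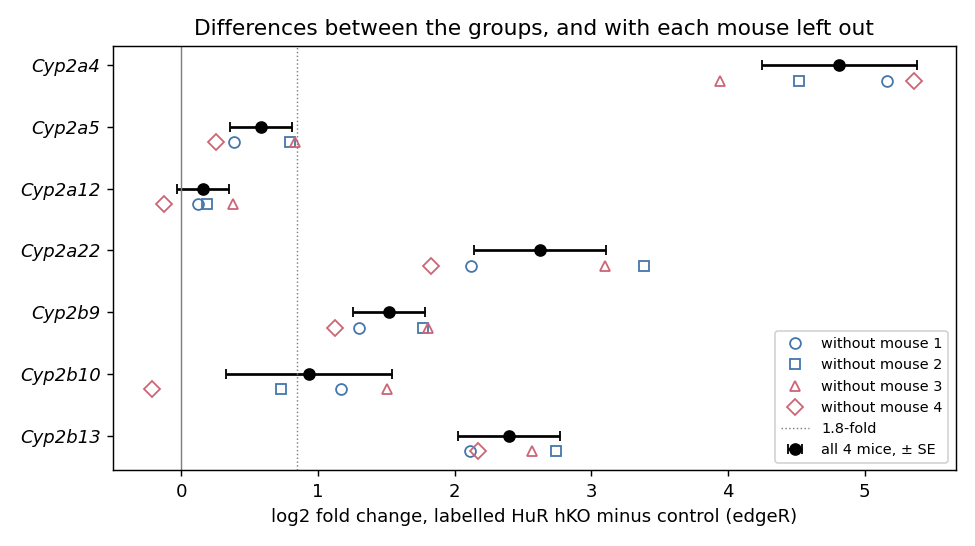
Log2 fold change of each gene between the libraries labelled HuR hKO and control; filled points with bars are the values with all 4 mice ± SE, open symbols the values without 1 mouse, and the dotted line marks 1.8-fold. Cyp2a4, Cyp2a22, Cyp2b9 and Cyp2b13 stay right of the dotted line in every case, whereas Cyp2a12 and Cyp2b10 cross 0 without mouse 4.

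The 7 genes did not order the HuR hKO mice alike. In 6 of the 7 the CPM of mouse 4 was higher than that of mouse 3, and only Cyp2a4 was higher in mouse 3. Among the controls, 5 of the 7 were higher in mouse 2, the exceptions being Cyp2a4 and Cyp2b10.

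Levels of different genes were compared per length, as CPM per kilobase of exon. In the controls Cyp2a5 was highest at 384 ± 74.6 (SD, n = 2), followed by Cyp2a12 at 158 ± 4.37, Cyp2b9 at 4.09 ± 0.909 and Cyp2a22 at 0.999 ± 0.579. Cyp2b10 at 0.462 ± 0.103, Cyp2b13 at 0.459 ± 0.139 and Cyp2a4 at 0.389 ± 0.124 followed, and these last 3 did not differ beyond their spread, while Cyp2a22 stood above Cyp2b10 by less than its own SD. In the libraries labelled HuR hKO, Cyp2a5 (575 ± 165) and Cyp2a12 (177 ± 44.7) were still on top. Cyp2b9 at 11.7 ± 3.95, Cyp2a4 at 11.1 ± 7.12 and Cyp2a22 at 6.13 ± 3.63 came next and did not differ from one another beyond their spread, and Cyp2b13 (2.43 ± 0.489) and Cyp2b10 (0.864 ± 0.662) were lowest. The exon sums of Cyp2a12 and Cyp2a22 (3457 and 3445 bases) are far longer than their coding transcripts (1681 and 1796 bases). Over the coding transcript alone Cyp2a12 was at 325 ± 8.98 per kilobase in control and Cyp2a22 at 11.7 ± 6.95 in HuR hKO, beside Cyp2b9 and Cyp2a4.

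The totals of the subfamilies reflected the abundant genes. The 4 Cyp2a genes together had 1225 and 1467 CPM in control and 1492 and 2195 CPM in mice 3 and 4, of which Cyp2a5 and Cyp2a12 held all but a few percent in each mouse. The 3 Cyp2b genes had 8.28 and 10.8 CPM in control and 21.5 and 35.2 CPM in HuR hKO, and Cyp2b9 held between 77.3% and 82.6% of them in every mouse. The Cyp2b13 part of the Cyp2b total was 8.18% and 9.72% in control and 18.2% and 14.8% in mice 3 and 4.

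The RefSeq sequences before the starts of these genes (GRCm38.p6) were compared because the called genes belong to different pairs. From 250 bases before to 50 after the start, Cyp2b9 and Cyp2b13 were 99.3% identical, Cyp2a4 and Cyp2a5 97.7%, Cyp2b9 and Cyp2b10 70.1%, and Cyp2a4 and Cyp2a22 53.6%. Of Cyp2a4 and Cyp2a5 only Cyp2a4 was called, and of Cyp2b9 and Cyp2b13 both were. Whether the sequence near the start bears on the calls was not tested. The 120 bases before each start are printed for these genes, with TATAAA in capitals. The starts used here are those of RefSeq, and the runs of Cyp2a4, Cyp2a5 and Cyp2b10 end inside the gene intervals given above. The Cyp2b9 run (chr7:26173289-26173408) and the Cyp2b13 run (chr7:26061375-26061494) had 0 differing bases. The others are chr7:26307072-26307191 for Cyp2a4, chr7:26835219-26835338 for Cyp2a5 and chr7:25897538-25897657 for Cyp2b10, all on the plus strand.
Cyp2a4: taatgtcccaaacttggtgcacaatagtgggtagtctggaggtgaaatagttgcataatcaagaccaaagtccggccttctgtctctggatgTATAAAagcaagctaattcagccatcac
Cyp2a5: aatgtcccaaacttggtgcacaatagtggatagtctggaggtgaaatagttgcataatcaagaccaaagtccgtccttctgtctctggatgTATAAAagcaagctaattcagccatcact
Cyp2b9 and Cyp2b13: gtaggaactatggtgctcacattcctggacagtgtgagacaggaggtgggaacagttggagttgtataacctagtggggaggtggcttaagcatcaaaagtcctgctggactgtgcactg
Cyp2b10: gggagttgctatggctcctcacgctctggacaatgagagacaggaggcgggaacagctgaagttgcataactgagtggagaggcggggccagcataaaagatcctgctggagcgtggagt

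Motifs were searched on both strands of these 300-base windows. TATAAA was found in all 4 Cyp2a windows, at position -28 from the start in Cyp2a4 and Cyp2a22, at -29 in Cyp2a5 and at -39 in Cyp2a12, and in no Cyp2b window, against 13.6% of 32851 promoters. AGGTCA, a core element of nuclear receptor sites, was found at position -138 in both Cyp2b9 and Cyp2b13 and after the start in Cyp2a4 and Cyp2a5, against 16.3% of promoters. TTCNNNGAA, the form bound by STAT5, and TGACNNNGC, the form bound by NRF2, were found in none of the 7 windows, against 8.3% and 12.4% of promoters.

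No neighbour in the cluster was called. Of the 14 other protein-coding genes between or next to the 7, 6 had enough counts to be tested, and 0 passed the threshold in either direction (3 log2 fold changes above 0 and 3 below). Their median was -0.18, and it turned to 0.08 without mouse 1 and to 0.02 with at least 10 counts in every mouse. Cyp2f2, an abundant P450 beyond Cyp2a12, was at 1105 and 940 CPM in control and at 714 and 877 CPM in mice 3 and 4, with a log2 fold change of -0.36 (adjusted p = 0.680 by edgeR). Cyp2g1, an olfactory P450 next to Cyp2a5, had 13 and 27 counts in control and 6 and 17 in HuR hKO. Cyp2s1 had 58 counts in mouse 1 and 4, 11 and 8 in mice 2, 3 and 4. The remaining Cyp2b genes of the cluster, Cyp2b19 and Cyp2b23, had 0 counts in every mouse. Outside the 7, 57 Cyp genes were tested, of which 3 were called higher and 2 lower, and their median was -0.06 on the log2 scale.

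**Figure D4:**
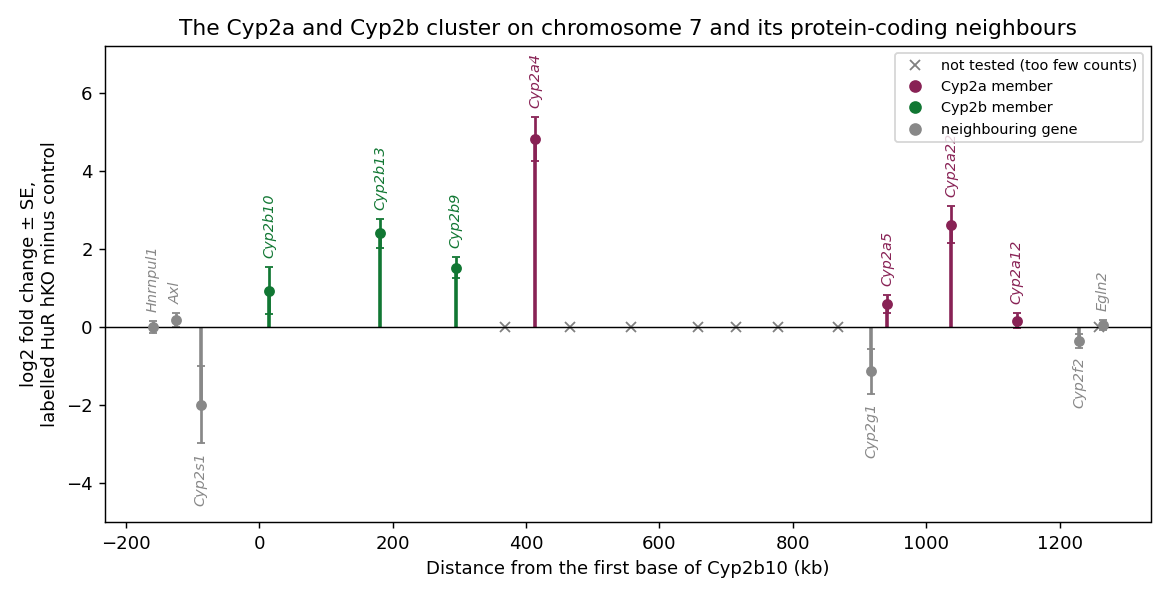
Log2 fold change (± SE) of the Cyp2a genes (purple), the Cyp2b genes (green) and the neighbouring protein-coding genes (grey) against the distance of their midpoints from the first base of Cyp2b10, in kilobases; crosses at 0 mark genes with too few counts to test, and carry no value. The called members are spread over the cluster, with Cyp2a5 and the tested neighbours Cyp2g1 and Cyp2f2 nearer to or below 0.

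In bulk liver RNA, more RNA per cell and more cells that express a gene cannot be told apart. Of the marker lists of other cell types, the 5 erythroid genes differed in the direction of the members, as 5 of 5 had log2 fold changes above 0. While 0 passed the threshold, 3 had an unadjusted p under 0.05 by edgeR, as had 7.43% of all genes. The erythroid sum ranged from 363 to 450 CPM in control and from 488 to 711 CPM in HuR hKO. All 6 endothelial markers (198 to 236 CPM against 236 to 261 CPM), 5 of 6 stellate cell markers (180 to 182 against 195 to 247) and 5 of 7 Kupffer cell markers (163.5 against 177 to 191) had log2 fold changes above 0 as well, with 0 past the threshold. The unadjusted p by edgeR was under 0.05 in 2 stellate cell markers, 0 endothelial markers and 0 Kupffer cell markers. Cholangiocyte markers ranged from 27.6 to 52.5 CPM in control and from 39.6 to 49.8 CPM in HuR hKO, lymphocyte markers from 2.33 to 5.30 and from 5.31 to 5.65, neutrophil markers (Ly6g at 0) from 0.376 to 0.597 and from 0.478 to 0.907, and pancreas markers stood at 9.63 in both controls and from 13.05 to 20.2 in HuR hKO. Hepatocyte markers overlapped between the groups, and the part of any of these in the values of the P450 genes was not tested.

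The regulators of these genes were not called. Of 11 tested, which include Nr1i3 (CAR), Nr1i2 (PXR), Ahr, Nfe2l2 (NRF2), Hnf4a and Hnrnpa1, a protein that binds Cyp2a5 mRNA, 0 passed the threshold, and their median of -0.06 on the log2 scale turned to 0.21 without mouse 1. Nr1i2 had the smallest p, with 89.4 and 94.8 CPM in control and 98.0 and 123 CPM in mice 3 and 4 (log2 fold change 0.26 ± 0.148 SE). Onecut1, a liver transcription factor, was at 70.3 CPM in mouse 1 alone and at 9.03, 27.7 and 7.54 CPM in mice 2, 3 and 4. Of the 10 genes for electron transfer to P450 and haem supply, such as Por and Alas1, 0 passed, with a median of 0.02 that was 0.14 without mouse 2, and Hmox2 (0.18) and Cyb5a (0.23) had the smallest p of these.

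Among 23 other CAR and PXR target genes tested, 3 were called higher and 0 lower, and their median of -0.03 on the log2 scale lay between -0.09 and 0.05 without any 1 mouse. These were the glutathione transferases Gsta1 (3.46 and 5.75 against 17.0 and 6.90 CPM, log2 fold change 1.36) and Gstm3 (14.6 and 20.2 against 45.4 and 20.8 CPM, 0.92), and the transporter Slco1a4 (17.3 and 11.6 against 24.4 and 28.6 CPM, 0.88). Gsta1 and Gstm3 were highest in mouse 3, as Cyp2a4 was. Of 11 NRF2 target genes, 1 was called lower (Osgin1, 87.7 and 87.8 against 59.4 and 36.7 CPM, -0.87) and 0 higher, with a median of -0.02 that lay between -0.12 and 0.14 without any 1 mouse.

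Since Cyp2a4, Cyp2b9 and Cyp2b13 are female-predominant, other sex-biased liver genes were set beside them. Of 28 further female-biased genes 13 had enough counts to be tested, of which 3 were called higher and 1 lower, and their median log2 difference of 0.19 turned to -0.05 without mouse 1 and without mouse 4, and was 0.59 without mouse 2. The organic anion transporter Slc22a27 was at 1.05 and 1.20 CPM in control and at 4.19 and 3.45 CPM in mice 3 and 4 (1.75 ± 0.343 SE). Cyp4a14, a fatty acid hydroxylase, was at 158 and 71.2 against 255 and 322 CPM (1.33), and Atp6v0d2, a proton pump subunit, at 0.828 and 1.49 against 1.61 and 4.57 CPM (1.43). Cyp2c40 went the other way, from 1.73 and 2.24 CPM to 0.349 and 1.12 CPM (-1.37). Cyp3a41b and A1bg had 0 counts in all 4 mice.

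Of 25 male-biased genes tested, 3 were called lower and 1 higher, and 20 had log2 fold changes below 0, with a median of -0.44 that lay between -0.48 and -0.25 without any 1 mouse. Ugt2b38, a glucuronosyltransferase, fell from 13.02 and 13.4 CPM to 7.25 and 4.25 CPM (-1.21 ± 0.256 SE), and the complement gene C6 from 209 and 145 to 99.6 and 79.1 CPM (-0.99 ± 0.199 SE). Bcl6, a repressor of female-biased genes in male liver that is also on the growth hormone list, was called lower (-1.71 ± 0.709 SE) on the strength of mouse 2, with 9.86 and 68.7 CPM in the controls against 8.51 and 15.3 CPM, so the groups overlapped. Mup21 was called higher, with 85.3 and 60.0 against 159 and 105 CPM (0.86). Of the 10 growth hormone signalling genes tested, Bcl6 was the 1 called, and their median of -0.22 went to -0.01 without mouse 1.

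**Figure D5:**
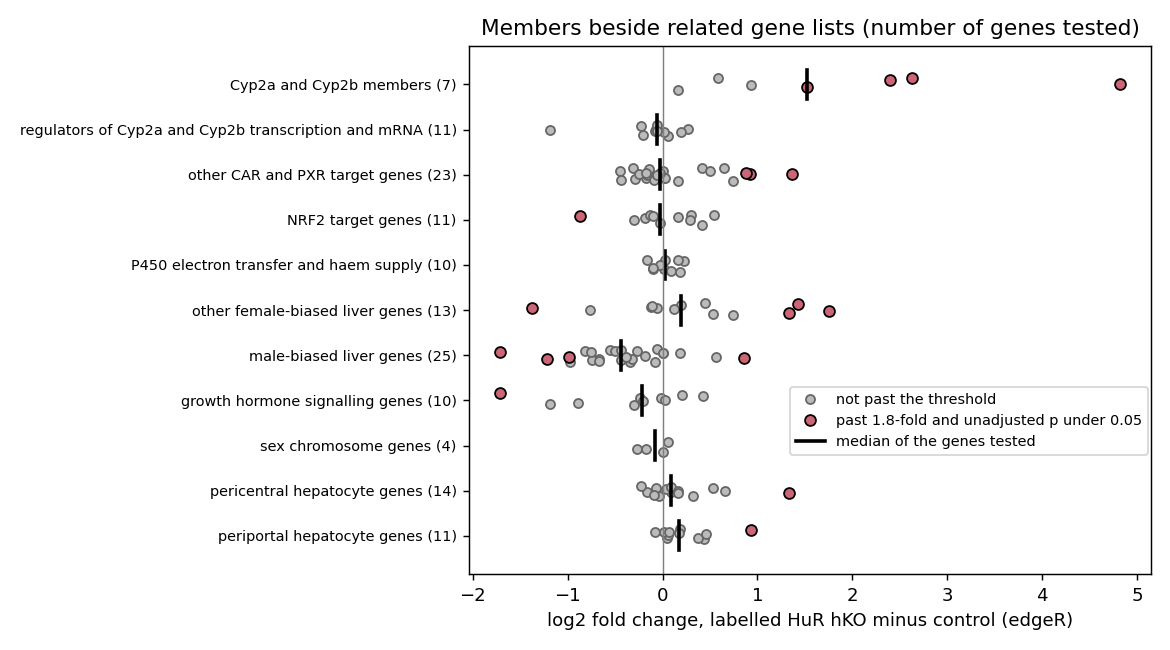
Log2 fold changes of the 7 members and of the genes tested in each related list, 1 point per gene, with the median as a bar; filled red points passed 1.8-fold with an unadjusted p under 0.05, and Bcl6 appears in both the male-biased and the growth hormone list. The member median of 1.52 stands apart from list medians between -0.44 and 0.19, and no test was made of that distance. Members and lists were chosen with earlier results of these data known.

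Zonation genes bear on Cyp2a5, which is expressed around the central vein. Of 14 pericentral genes 1 was called higher (Rhbg, an ammonium transporter, 5.12 and 13.4 against 13.2 and 33.2 CPM, 1.34), and their median was 0.09 on the log2 scale (0.36 without mouse 2), and of 11 periportal genes 1 was called higher (Aldh1b1, 36.0 and 43.8 against 67.3 and 85.1 CPM, 0.94), with a median of 0.17 (0.04 without mouse 4).

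To place each member among all liver genes, the genes with the most similar log2 CPM over the 4 mice were listed, by Euclidean distance after centring. The comparison covered 11096 genes with a mean log2 CPM of at least 1. Each distance describes 4 points per gene. Cyp2a4 had no close match, its nearest being Cyp2b13 at a distance of 2.66, beside 4.58 from a flat line. Cyp2b13 was nearest to Mmd2 (0.421), Slc39a4, a zinc importer (0.436), and Tmem265 (0.665). Cyp2a22 was nearest to Cyp2b13 (0.836), Gm11752 (0.967) and the metallothionein Mt1 (1.16). Cyp2b9 was nearest to Leap2 (0.184), Enho (0.232) and Pdlim2 (0.334), of which Leap2 and Enho encode secreted peptides. Cyp2a5 was nearest to Shld1 (0.0623), Atpif1 (0.0796) and the alpha globin gene Hba-a2 (0.0816). Cyp2a12 was nearest to Tpmt (0.0239), Sardh (0.0345) and Mef2c (0.0377), and Cyp2b10 to Gm14296 (0.211), Meg3 (0.304) and Arrdc2 (0.344). For Cyp2a4, Slc39a4 (2.69) and Mmd2 (2.72) followed, the same genes that were closest to Cyp2b13.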

How the data were processed

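The authors deposited whole-number counts per Ensembl gene, not normalized, with 1 column per mouse. The submitters' processing notes name RSEM and GRCm38, whereas versions, roles and the counting rule for shared reads are not given in the sources used here. Symbols, exon lengths and coding sequences came from GENCODE annotation of GRCm38, and 46005 of 46603 identifiers had a symbol. Counts were fitted with edgeR 4.0.16 (quasi-likelihood test, TMM factors, filterByExpr, 13001 genes kept), HuR hKO minus control, 2 mice each, with Benjamini-Hochberg adjustment over all genes. CPM are counts relative to the library total scaled by TMM factors. Totals per mouse ranged from 13032095 to 19715577, and replicates differed beyond counting noise (chi-square per degree of freedom 21.2 and 24.2). Alternatives were DESeq2 1.42.0, limma-voom (limma 3.58.1), other scalings and filters, summed pairs and leaving out each mouse. The fit was tested on simulated data. Named genes were all members, Elavl1, up to 5 called genes of each list (or the 2 with the smallest p), and the 3 genes nearest to each member. Of the cell marker lists, summed levels are given in place of single genes, and 1 list is not reported here. Members and lists were chosen with earlier results of these data known.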

Additional observations from a re-analysis of the deposited data

How the results depend on the processing

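No paired analysis was possible because the mouse numbers of the groups (1 and 2, 3 and 4) share no number. Cyp2a4, Cyp2a22, Cyp2b9 and Cyp2b13 kept their direction and their call under every alternative in which they were tested. A minimum of 10 counts in every mouse took Cyp2a4 and Cyp2b13 out of the test and left 2 called members, and summing Cyp2a4 with Cyp2a5 and Cyp2b9 with Cyp2b13 left 2 called entries, the Cyp2b sum and Cyp2a22. The sum of Cyp2a12 and Cyp2a22 was not called (log2 fold change 0.20). With 1 mouse left out, the lone mouse of that group is assumed to vary like the other group. The called members then numbered 4 to 5, the log2 fold change of Cyp2a12 ran from -0.12 (without mouse 4) to 0.38 (without mouse 3) and that of Cyp2b10 from -0.22 to 1.50 for the same mice. Over all genes, calls higher in HuR hKO ranged from 127 to 265 and calls lower from 133 to 181, both most without mouse 2, and genes with an adjusted p under 0.05 from 0 (without mouse 3, by edgeR) to 45 (without mouse 2). Without a filter on low counts, 262 genes were called higher, 264 lower and 161 had an adjusted p under 0.05, against 3 in the main fit, 8 with no scaling factor beyond the library total, 8 with the robust test and 85 with DESeq2. The cause of these shifts was not tested. List medians moved by more than the spread between mice in 18 of 227 recomputed values, and 12 had the other sign. The cholangiocyte median, -0.23 in the main fit, was 0.63 without mouse 1 and was not counted among the 18. The depth limits the values of Cyp2a4, Cyp2b10 and Cyp2b13 in control, which rest on 7 to 15 counts.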
